A study of Mus musculus with 72 samples.

Results

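Fabp3, Fabp5 and Fabp7 encode the fatty acid binding proteins of heart, epidermal and brain type, and they are the 3 genes of this family with a level above 1 FPKM in every library of the suprachiasmatic nucleus (SCN). They were found by symbol among 24883 rows of the deposited tables, with 1 row each. The genes were chosen by name from results of these data that were already known, among them the rhythm of Fabp7 under light/dark cycles. Their p-values below therefore show where they stand in a fit of all genes and add no independent support.

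Fatty acid binding proteins are small proteins of the cytosol that hold a long-chain fatty acid in a barrel-shaped pocket and carry it between membranes, enzymes and nuclear receptors. FABP7, also called BLBP, is found in radial glia, astrocytes and tanycytes and prefers polyunsaturated fatty acids such as docosahexaenoic acid. Its mRNA is known to cycle over the day across the mouse brain, and the nuclear receptor REV-ERBα (gene Nr1d1) represses it. FABP5 occurs in neurons, glia and brain endothelium, and together with FABP7 it brings the endocannabinoid anandamide to the enzyme FAAH. FABP3 is the form of heart and skeletal muscle and is found in neurons of the adult brain.

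The SCN of male C57BL/6 mice was sequenced in 72 libraries. Mice aged 8 weeks were acclimated, kept for 1 week in 12 h light/dark cycles (LD) or constant darkness (DD), and then fed for 2 weeks under the same lighting. The diets were a tryptophan-free diet (-Trp) and a nitrogen-matched control diet (Ctrl), which gives 4 groups, Ctrl and -Trp in LD and Ctrl and -Trp in DD. Each group has 18 libraries, 3 at each of 6 times 4 h apart, called zeitgeber time (ZT) in LD and circadian time (CT) in DD. The libraries of a time are from separate mice. The unit is FPKM, fragments per kilobase of transcript scaled to the mapped total of a library. FPKM holds no counts, so depth is unknown, and the error of a value is taken from the 3 libraries at each time.

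Columns were placed in groups by the order in which the study's own listing of oscillating genes holds the same values. The 36 Ctrl columns matched by equal values, to a relative tolerance of 0.0001, and the 36 -Trp columns were placed by continuing the shift. This order differs from the column names, and which of the 2 is right was not tested. Values with the columns as named stand beside the results they change most, and the changes of calls are collected in the closing section. In this order the sum of FPKM was 403066 or more in all 36 LD libraries and 353587 or less in 35 of the 36 DD libraries, with 411944 in -Trp DD CT4 replicate 2. The light schedule and these ranges cannot be told apart. The Ctrl DD CT12 replicate 1 also stood apart in its expression, and leaving out both libraries changed no call of the 3 genes. With the columns as named, Ctrl LD held sums of both ranges, 430911 or more at ZT0 to ZT12 and 329321 or less at ZT16 and ZT20.

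In GENCODE release M21 on GRCm38 (mm10), all on the + strand, Fabp7 lies on chromosome 10 from 57784881 to 57788450, Fabp3 on chromosome 4 from 130308595 to 130315463, and Fabp5 on chromosome 3 from 10012548 to 10016607. Annotated copies that share at least 85% identity over at least 100 bases numbered 5 for Fabp5, 1 for Fabp3 and 0 for Fabp7. Fabp3-ps1 equalled Fabp3 at 99.3% over 402 bases, and Gm6166 equalled Fabp5 at 98.3% over 409 bases. These copies have no row of their own in the tables, so reads that came from them could be counted in Fabp3 or Fabp5.

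Since Fabp7 is the member with a daily rhythm in LD on both diets, its promoter is shown. The stretch runs 5′ to 3′ on the + strand of GRCm38.p6, chr10:57784673-57784880, and ends where the earliest GENCODE transcript begins. Capitals mark TGACCT, the reverse complement of AGGTCA, a half-site of nuclear receptors, REV-ERB and ROR among them. The bases beside it were not searched.

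Fabp7: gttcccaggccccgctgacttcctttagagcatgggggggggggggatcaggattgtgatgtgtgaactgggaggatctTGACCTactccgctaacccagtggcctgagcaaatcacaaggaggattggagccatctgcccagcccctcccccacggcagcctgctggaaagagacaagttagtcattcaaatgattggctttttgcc

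AGGTCA was searched on both strands in the 250 bases before each RefSeq start, and 14.0% of 32851 such windows held it. The Fabp7 window held it 1 time, 166 bases before the RefSeq start, and the Fabp3 window 0 times. Neither window held CACGTG (E-box), which 6.02% of windows held, or TTATGTAA (D-box), which 0.819% held. Fabp5 has no entry in the promoter table. A match of letters is a description and not a measured binding site.

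Fabp7 in LD was high in the light phase and low in the dark phase on both diets. On the Ctrl diet it was 92.4, 114 and 101 FPKM at ZT0, 122, 122 and 110.3 at ZT4, and 95.2, 92.4 and 112 at ZT8. It was 55.7, 56.9 and 51.0 FPKM at ZT12, 48.3, 33.4 and 36.05 at ZT16, and 62.4, 51.0 and 56.3 at ZT20. The 9 libraries of ZT0 to ZT8 (92.4 FPKM or more) thus all lay above the 9 of ZT12 to ZT20 (62.4 or less). The mean fell from 118 ± 6.84 FPKM (SD, n = 3) at ZT4 to 39.2 ± 7.95 at ZT16, a ratio of 3.01.

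On the -Trp diet Fabp7 was 91.7, 81.5 and 90.6 FPKM at ZT0, 85.5, 113 and 109 at ZT4, and 71.8, 72.5 and 69.9 at ZT8. It was 29.6, 34.0 and 52.5 FPKM at ZT12, 27.2, 26.6 and 32.8 at ZT16, and 40.5, 48.0 and 45.5 at ZT20. Here too the 9 light-phase libraries (69.9 FPKM or more) did not overlap the 9 dark-phase libraries (52.5 or less). For neither diet is the share of all genes split in this way given here, and Fabp7 was chosen with this rhythm known. The mean was 102 ± 14.6 FPKM (SD, n = 3) at ZT4 and 28.9 ± 3.38 at ZT16, a ratio of 3.54.

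By JTK_CYCLE, the rank test of the study, with an exact null distribution and p multiplied by the 6 templates tried, Fabp7 had p = 3.4e-06 in Ctrl LD and p = 1.6e-07 in -Trp LD. It ranked 3 among all rows in the first group and 1 in the second. Fabp5 had an exact JTK_CYCLE p of 0.011 in Ctrl LD and 0.092 in -Trp LD, and Fabp3 had 0.14 and 0.38. Thus 2 of 3 members passed the threshold of 0.05 in Ctrl LD, where 7.11% of rows did, and 1 of 3 in -Trp LD, where 7.42% did. After Benjamini-Hochberg adjustment over all rows, Fabp7 kept an adjusted p of 0.017 in Ctrl LD and 0.0013 in -Trp LD, whereas Fabp5 had 0.41 in Ctrl LD. With the columns as named, Fabp7 had an exact p of 0.020 on Ctrl and 1 on -Trp in LD, and of 0.32 on Ctrl and 6.5e-06 on -Trp in DD. In the same sequence, 9416, 617, 6874 and 1661 of 24883 rows passed under the names.

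A cosine of 24 h was fitted by limma to log2(FPKM + 0.5), with FPKM first scaled between libraries by medians of ratios. The fit put the peak of Fabp7 at ZT 3.87 ± 0.255 h (SE) in Ctrl LD and 3.32 ± 0.280 h in -Trp LD. Its amplitude, the distance from the mean to the peak, was 0.82 ± 0.054 on the log2 scale in Ctrl LD and 0.92 ± 0.068 in -Trp LD. The test of the difference in rhythm between the diets, limma's joint F-test of diet with the cosine and sine, gave Fabp7 p = 0.19 (adjusted p = 0.9997). None of the 3 genes was called there, as was true of all genes (0% of 14202 genes called, 456 at an unadjusted p under 0.05).

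**Figure D1:**
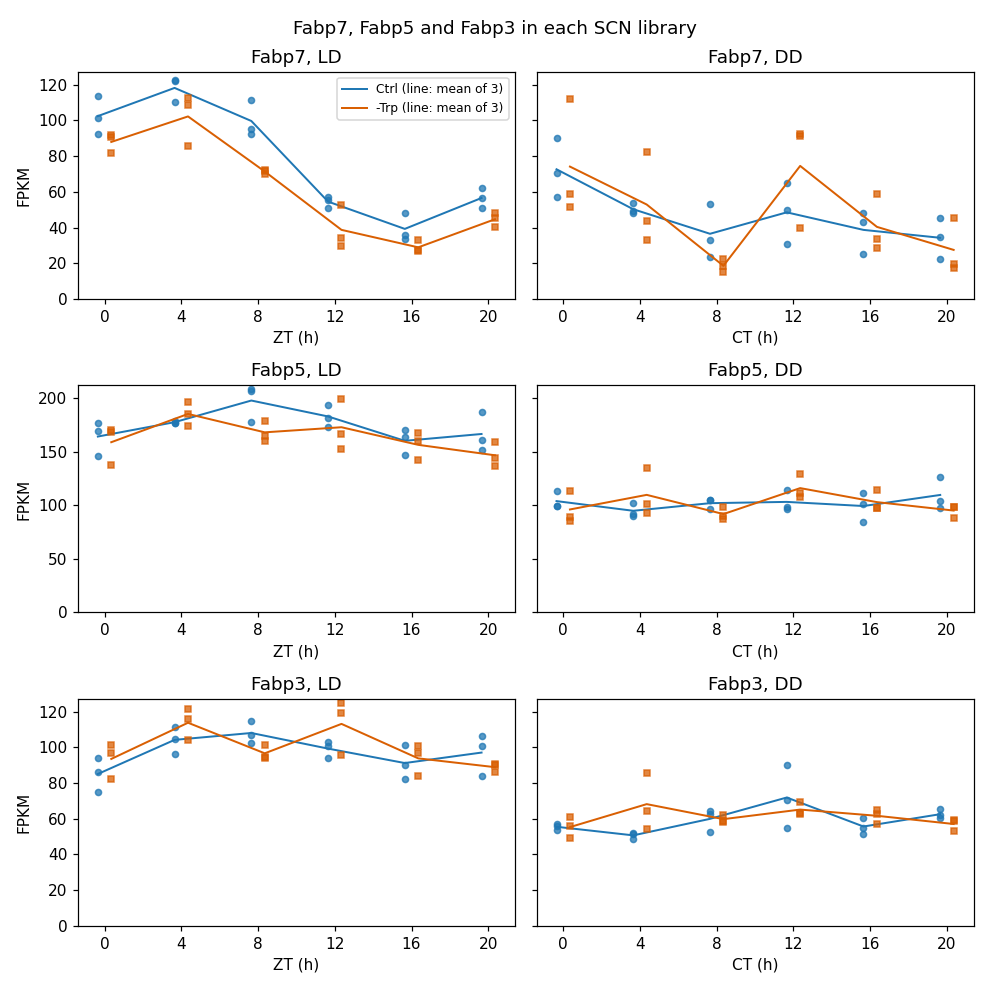
Level in FPKM (y axis, from 0) of Fabp7, Fabp5 and Fabp3 against zeitgeber or circadian time in hours (x axis), in LD (left) and DD (right). Each point is 1 library, circles on Ctrl and squares on -Trp, and lines join the means of 3 libraries: Fabp7 in Ctrl LD runs from a mean of 118 at ZT4 to 39.2 at ZT16, while its DD libraries of the same time lie far apart.

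In DD the libraries of a single time were far apart for Fabp7. On the Ctrl diet it was 90.3, 57.0 and 70.6 FPKM at CT0, 53.5, 47.9 and 49.3 at CT4, and 23.5, 33.0 and 52.9 at CT8. It was 30.8, 50.1 and 64.7 FPKM at CT12, 48.0, 42.9 and 25.1 at CT16, and 34.6, 45.5 and 22.6 at CT20. The 3 libraries of CT0 were above all 3 of CT4, CT8, CT16 and CT20, and they overlapped those of CT12.

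On the -Trp diet in DD, Fabp7 was 112, 51.4 and 58.9 FPKM at CT0, 33.2, 82.1 and 43.4 at CT4, and 22.3, 18.4 and 14.8 at CT8. It was 91.3, 39.6 and 92.7 FPKM at CT12, 59.0, 28.3 and 33.8 at CT16, and 19.5, 45.4 and 17.5 at CT20. The 3 libraries of CT8 were close to each other and below all 3 of CT0, CT4, CT12 and CT16. The 82.1 FPKM at CT4 is the library whose sum of FPKM lies in the range of LD.

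No member passed JTK_CYCLE in DD. Fabp7 had an exact p of 0.54 in Ctrl DD and 1 in -Trp DD, Fabp5 had 1 in both, and Fabp3 had 0.38 and 0.26. Of all rows, 4.92% passed in Ctrl DD and 1.42% in -Trp DD. The fitted amplitude of Fabp7 was 0.31 ± 0.17 (SE, log2 scale) in Ctrl DD and 0.13 ± 0.28 in -Trp DD. The rhythm of Fabp7 differed between LD and DD at an unadjusted limma p of 0.015 on the Ctrl diet (adjusted p = 0.26) and 0.024 on -Trp (adjusted p = 0.52), so that a difference was not called. These tests called 0.0832% of genes on the Ctrl diet, 0.0278% on -Trp, and 0.0345% for the diets within DD, where Fabp7 had an adjusted p of 0.96 from limma.

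The spread between libraries of the same time, pooled over the 6 times on the log2 scale, was 0.153 (Ctrl) and 0.225 (-Trp) for Fabp7 in LD, against 0.449 (Ctrl) and 0.588 (-Trp) in DD. Over both diets it was 2.72 times as large in DD as in LD, and 89 of the 13241 genes that averaged 1 FPKM or more had a higher ratio. The median ratio over these genes was 0.974. Fabp5 (1.37) and Fabp3 (1.34) were nearer to that median, Of 5 clock genes, Nr1d1 had a ratio of 2.01 and Per2, a repressor of the clock, 1.68, while Dbp (1.15), Nr1d2 (1.07) and Arntl (0.973) were closer to the median. These ratios are given as a description, without a test.

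**Figure D2:**
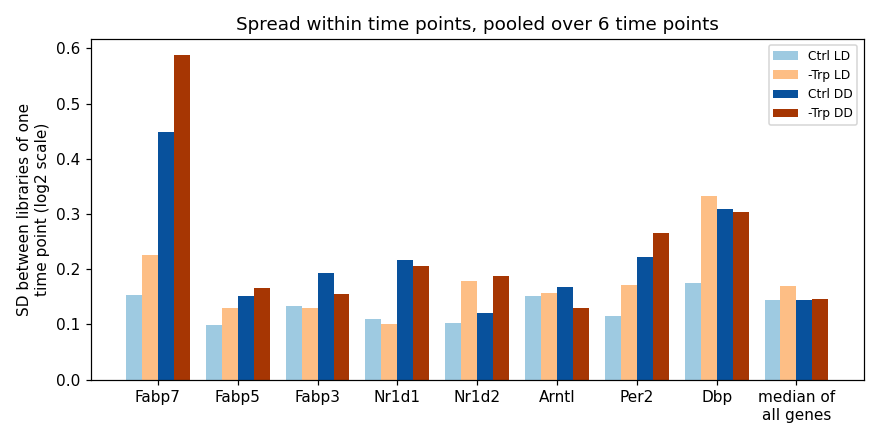
Standard deviation between libraries of one time on the log2 scale (y axis, from 0), pooled over 6 times, for the 3 members, the clock genes Nr1d1, Nr1d2, Arntl, Per2 and Dbp, and the median of 13241 genes (x axis). Bars are the 4 groups: Fabp7 stands at 0.153 and 0.225 in LD and at 0.449 and 0.588 in DD, while the median of all genes is between 0.144 and 0.169 in each group.

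Whether the level of Fabp7 followed that of clock genes from library to library was examined after the values had been seen, in 32 relations, each over the 18 libraries of a group on the log2 scale. In -Trp DD, libraries with more Per2 had less Fabp7 (Pearson's r = -0.821, permutation p = 7e-05, adjusted p = 0.00056, and Spearman's rho = -0.804, permutation p = 0.00013, adjusted p = 0.0021). Without the 2 libraries farthest from the median of Per2, r was -0.801. Without the library of the LD range it was -0.811. With the mean of each time removed it was -0.698, for which no p was computed. The permutations ran across times, so differences between times enter the p-values.

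The same pair gave r = -0.193 in Ctrl DD (permutation p = 0.44), -0.181 in Ctrl LD (permutation p = 0.47) and -0.224 in -Trp LD (permutation p = 0.38). Whether the groups differ in this relation was not tested. Nr1d1, the repressor of Fabp7 named above, gave r = 0.505 (Ctrl, adjusted permutation p = 0.12) and 0.444 (-Trp, 0.22) in LD, and 0.135 (Ctrl, 0.64) and 0.520 (-Trp, 0.12) in DD. By rank, the last of these had rho = 0.593 with an adjusted permutation p of 0.046, and r fell to 0.409 without the 2 farthest libraries. No relation of Fabp7 with Nr1d2, Arntl or Dbp had an adjusted permutation p under 0.05, by r or by rho. In Ctrl DD these values rested in part on CT12 replicate 1. Without that library, r went from 0.387 to 0.717 for Arntl, from -0.229 to -0.493 for Nr1d2 and from -0.193 to -0.301 for Per2, values for which no p was computed. With the time means removed and all libraries in, r was -0.150 for Arntl.

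**Figure D3:**
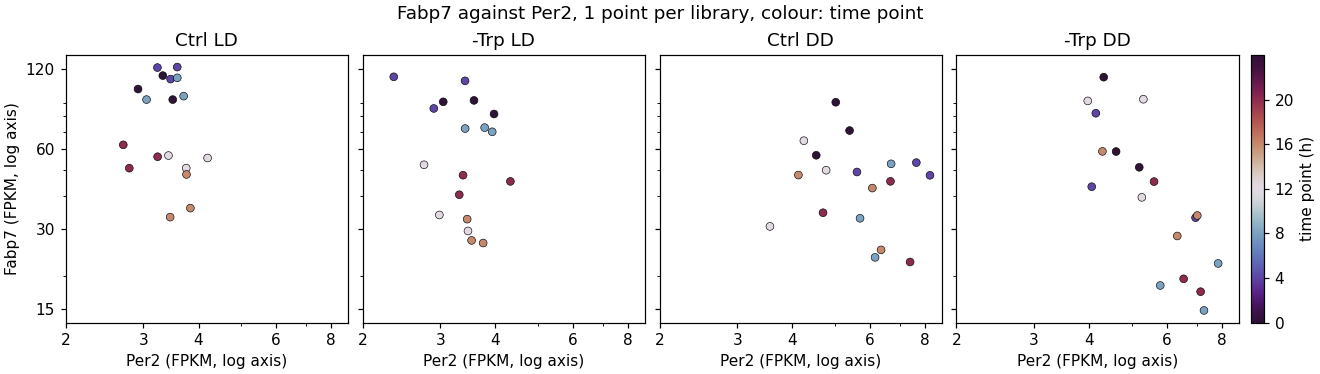
Fabp7 (y axis, FPKM, log axis) against Per2 (x axis, FPKM, log axis) in the 4 groups, with 1 point per library and the time in hours as colour. Libraries of -Trp DD fall from upper left to lower right (r = -0.821), while r in the other groups is between -0.224 and -0.181.

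Without dietary tryptophan, Fabp7 was lower in LD. It had a median of 77.4 FPKM (33.4 to 122) over the 18 Ctrl libraries and 61.2 FPKM (26.6 to 113) over the 18 -Trp libraries. All 3 -Trp libraries lay below all 3 Ctrl libraries at ZT0, ZT8, ZT16 and ZT20, which made 4 of 6 times, and the mean was lower at 6 of 6. Of 14202 genes, 0.204% were lower in this way at 4 or more times.

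The diet effect on Fabp7 in LD was -0.35 ± 0.062 (SE) on the log2 scale, a ratio of 0.787, with an adjusted p of 0.0027 by limma, and it ranked 17 among all genes. Fabp7 was the 1 member of 3 that was called, where 1.11% of genes were. Fabp5 differed by -0.07 ± 0.041 (adjusted p = 0.51) and Fabp3 by 0.05 ± 0.048 (adjusted p = 0.71), so neither was called by limma. With a single fit for all 72 libraries, in which the spread of DD enters, the same effect on Fabp7 had an adjusted limma p of 0.21 and was not called. With the columns as named it was -0.11 on the log2 scale (adjusted limma p = 0.55), and Fabp5 (-0.37, adjusted limma p = 5.5e-05) and Fabp3 (-0.33, adjusted limma p = 0.0013) were called instead.

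Fabp7 is a gene of astrocytes, so their markers are given beside this result. Of 12 astrocyte markers, Glul, which makes glutamine, rose by 0.23 ± 0.047 in -Trp LD (log2 scale, adjusted limma p = 0.0075) and Aqp4, the water channel, fell by 0.35 ± 0.085 (adjusted limma p = 0.032). The other 10 were not called. At an unadjusted limma p under 0.05 stood 7 of the 12, against 1848 of 14202 genes, and the median difference of the list was 0.04, against 0.00 over all genes. The summed level of the 12 was 1288 to 2046 FPKM in Ctrl LD and 1659 to 2281 in -Trp LD. In the list of tanycyte and ependymal markers 0 of 7 tested were called, and their sum was 66.8 to 229 FPKM in Ctrl LD and 31.6 to 218 in -Trp LD. The median difference of these 7 was -0.29 on the log2 scale, with 1 at an unadjusted limma p under 0.05. The 8 endothelial markers had a median of -0.37, with 7 at an unadjusted limma p under 0.05 and 0 called. The part of these markers in the difference was not tested. In bulk tissue, fewer cells of a type and less RNA per cell cannot be told apart.

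In DD no member was called between the diets. Fabp7 had a median of 48.0 FPKM (22.6 to 90.3) on Ctrl and 41.5 FPKM (14.8 to 112) on -Trp, and the diet effect was -0.11 ± 0.17 on the log2 scale (adjusted limma p = 0.67). That of Fabp5 was 0.00 ± 0.053 (adjusted limma p = 0.99) and that of Fabp3 was 0.06 ± 0.058 (adjusted limma p = 0.52). In this comparison 13.4% of genes were called. With the columns as named, Fabp3 and Fabp5 were called, at 0.44 and 0.47 on the log2 scale. The diet effect on Fabp7 in LD minus that in DD was -0.23 ± 0.19 (adjusted limma p = 0.43), so the 2 effects were not shown to differ. None of the 3 members passed that test of diet by light, and 7.69% of genes did.

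Fabp5 had the highest level of the family. In LD it was 147 to 209 FPKM (median 177) on Ctrl and 137 to 199.7 (median 166) on -Trp. In DD it was 84.9 to 127 FPKM (median 101) on Ctrl and 85.5 to 135 (median 98.7) on -Trp. All 18 LD libraries lay above all 18 DD libraries on each diet. That holds for 15.5% of genes on the Ctrl diet and 9.99% on -Trp.

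Over the day Fabp5 moved little. In Ctrl LD its mean was highest at ZT8, 198 FPKM, and lowest at ZT16, 160.4, a ratio of 1.24. In -Trp LD it ran from 186 FPKM at ZT4 to 147 at ZT20, and in DD the ratio of the highest to the lowest mean was 1.16 on Ctrl and 1.26 on -Trp. Leaving out any of 3 libraries of -Trp LD (ZT0 replicate 2, ZT12 replicate 3 or ZT16 replicate 3) brought its exact JTK_CYCLE p in that group to between 0.030 and 0.040.

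Fabp3 was 75.0 to 115 FPKM (median 101) in Ctrl LD and 82.2 to 125 (median 96.9) in -Trp LD. In DD it was 48.8 to 90.3 FPKM (median 56.3) on Ctrl and 49.2 to 85.7 (median 60.1) on -Trp. The highest DD values, 90.3 and 85.7, are from the 2 libraries that stand apart. The next were 70.4 on Ctrl and 69.7 on -Trp, below every LD library. With all libraries in, LD and DD thus overlapped on each diet, by 1 DD library. The share of genes that separate once these 2 libraries are left out is not given here. Fabp3 passed JTK_CYCLE in no group, and it had an exact p of 0.022 in Ctrl LD without replicate 2 of ZT20. With the columns as named, Fabp3 passed JTK_CYCLE in Ctrl LD (exact p = 0.00063) and in -Trp DD (exact p = 0.020). Its Ctrl LD means under the names were 88.9 to 113 FPKM at ZT0 to ZT12, and 55.5 and 50.7 at ZT16 and ZT20. The libraries of those 2 later times had the lower range of sums of FPKM given above. Of 24883 rows, 9416 passed in Ctrl LD and 1661 in -Trp DD under the names.

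FPKM is per length, so levels of the members can be set side by side. Fabp5 was above Fabp3 in 72 of 72 libraries, by a median ratio between 1.67 and 1.81 in the 4 groups. Fabp3 and Fabp7 changed places: Fabp3 was the higher of the pair in 12 (Ctrl) and 17 (-Trp) of 18 libraries in LD, and in 13 (Ctrl) and 14 (-Trp) of 18 in DD. Their ranges overlapped in each group.

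Levels were higher in LD than in DD for all 3 members on the Ctrl diet. The difference was 0.67 ± 0.045 on the log2 scale (SE) for Fabp5, a ratio of 1.59, with an adjusted limma p of 9.5e-15. It was 0.61 ± 0.059 for Fabp3 (adjusted limma p = 4.0e-11) and 0.61 ± 0.14 for Fabp7 (adjusted limma p = 0.00014). On the -Trp diet the difference was 0.60 ± 0.050 for Fabp5 (adjusted limma p = 1.2e-12), 0.61 ± 0.046 for Fabp3 (adjusted limma p = 1.1e-13) and 0.38 ± 0.21 for Fabp7 (adjusted limma p = 0.095).

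So 3 of 3 members were called on Ctrl and 2 of 3 on -Trp, where 78.8% and 79.5% of all genes were called. These counts are near that background and are no result about the members. LD and DD also differ in the total FPKM given above. For Fabp7 on -Trp, leaving out CT12 replicate 1 or 3 or CT16 replicate 1 of DD, or ZT12 replicate 1 of LD, brought the adjusted limma p to between 0.041 and 0.044. It was 0.040 on FPKM as deposited and 0.049 in the single fit of 72 libraries. With the columns as named, none of the 3 was called on Ctrl and the -Trp differences were negative, between -0.68 and -0.57 on the log2 scale.

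Markers of other cell types differed between the light schedules as well. Rax, a transcription factor of tanycytes, had a median of 0.0584 FPKM in Ctrl LD and 2.71 in Ctrl DD, and 0.0864 and 2.33 on -Trp. Crabp1, a retinoic acid binding relative of the family, had medians of 3.52 (Ctrl) and 4.99 (-Trp) FPKM in LD, and of 24.1 (Ctrl) and 23.4 (-Trp) in DD. The summed astrocyte markers had medians of 1793 and 1843 FPKM in LD and 1418 and 1473 in DD, on Ctrl and -Trp. Of 8 tanycyte and ependymal markers, 5 were higher and 3 lower in LD on Ctrl, and 0 higher and 3 lower on -Trp. Of 8 markers each, neurons had 6 and 7 higher in LD on Ctrl and -Trp, oligodendrocytes 7 and 8, microglia 5 and 7, with 0 lower, while endothelium had 4 and 7 lower and 1 higher on each diet. Of 11 SCN markers, 9 were higher and 2 lower in LD on Ctrl, and 4 higher and 2 lower on -Trp. Of all genes, 5922 were higher and 5448 lower in LD on Ctrl, and 6006 higher and 5451 lower on -Trp. The part of these markers in the differences of the 3 members was not tested.

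**Figure D4:**
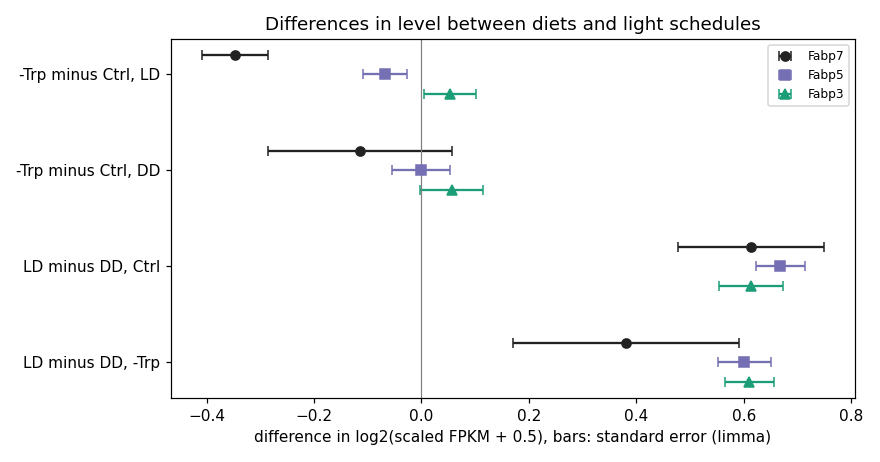
Differences in level on the log2 scale (x axis) between the diets within LD and DD and between LD and DD on each diet (y axis), with symbols for Fabp7, Fabp5 and Fabp3 and bars for the standard error. Fabp7 is the member away from 0 for the diets in LD (-0.35), and all 3 are between 0.38 and 0.67 for LD minus DD.

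The other genes of the family were near 0. Fabp2, Fabp6, Fabp9 and Fabp12 were listed at 0 in 60 to 71 of 72 libraries, and their highest values were 0.427, 0.282, 0.0688 and 0.0220 FPKM. Fabp4, the form of adipocytes and some endothelium, had a median of 0.0707 FPKM, and Pmp2, the form of peripheral myelin, of 0.0222. The 4 adipocyte markers summed to at most 0.250 FPKM in any library.

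Fabp1, the form of liver and gut, was listed at 0 in 42 libraries but was 41.2 FPKM in -Trp LD ZT12 replicate 2 and 13.8 in Ctrl DD CT0 replicate 1. In the other 70 libraries it was at most 0.938. Both libraries also held the most albumin (Alb, 126 and 32.5 FPKM, against at most 3.59 elsewhere) and the most apolipoprotein A1 (Apoa1, 35.5 and 9.29, against at most 2.08). Fabp7 was 34.0 and 90.3 FPKM in these 2 libraries. Leaving out either of them changed no call of Fabp7.

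The fatty acid pathway was read from lists of genes. For the diets in LD, 1 of 15 genes of uptake and activation was called, Mfsd2a, the carrier of docosahexaenoic acid into the brain, which rose by 0.24 ± 0.054 on the log2 scale (adjusted limma p = 0.020). None of 6 enzymes of polyunsaturated fatty acids and none of 10 endocannabinoid genes was called, and 1 of 3 retinoid-binding relatives was, Crabp1 (0.55 ± 0.14, adjusted limma p = 0.047). The medians of these 4 lists were 0.02, -0.06, 0.03 and 0.39 in that order, against 0.00 over all genes. Of all genes, 1.11% were called.

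For the diets in DD, of the 6 polyunsaturated fatty acid enzymes, the desaturases Fads1 and Fads2 fell, by 0.28 ± 0.035 on the log2 scale (adjusted limma p = 1.4e-05) and 0.17 ± 0.046 (adjusted limma p = 0.017). Of 15 genes of uptake and activation, 2 fell, Acsl6 and Slc27a4, and 0 rose. In this comparison 13.4% of all genes were called, so the count of 2 of 15 is near that background. None of the 10 endocannabinoid genes was called, Faah among them, with -0.08 ± 0.091.

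The other lists are given by their counts for the diets, where 1.11% of all genes were called in LD and 13.4% in DD. In LD 1 of 20 clock genes was higher on -Trp, 2 of 8 oligodendrocyte precursor markers were lower, and none was called among 11 SCN markers, 8 markers each of neurons, oligodendrocytes, microglia and endothelium, 5 of choroid plexus, 6 of meninges and fibroblasts, and 1 other Fabp gene. In DD the calls were 2 of 20 clock genes, 7 of 8 oligodendrocyte precursor markers and 2 of 8 oligodendrocyte markers. Among neuron, microglia and tanycyte or ependymal markers, 1 of 8 was called in each list. All of these were lower on -Trp, while of all genes called in DD 1050 were higher and 897 lower. The tanycyte or ependymal marker was Nes, named after its value was seen, while the list of 8 had a median of 0.25 on the log2 scale, with 5 at an unadjusted limma p under 0.05. Of 12 astrocyte markers, 2 were higher and 1 lower. The calls were 0 in the lists of SCN, endothelial, choroid plexus, meningeal and fibroblast markers, retinoid-binding relatives and other Fabp genes.

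For rhythm in LD, JTK_CYCLE called 3 of 16 genes of uptake and activation on Ctrl and 4 of 16 on -Trp. It called 7.11% and 7.42% of all rows. Mfsd2a had the smallest p of the list on both diets (exact p = 0.00017 and 3.7e-05). Of 21 genes of receptors and oxidation 3 were called on each diet, with Angptl4, an inhibitor of lipoprotein lipase, first (exact p = 0.0020 and 0.0014). Of 12 astrocyte markers 3 were called on each diet, Fgfr3, Gjb6 and Glul. In Ctrl DD, 3 of 16 genes of uptake and activation (Lpl, Slc27a3 and Acsl5) and 4 of 21 of receptors and oxidation were called. In -Trp DD the calls were 0 of 16 and 0 of 21. Of all rows, 4.92% were called in Ctrl DD and 1.42% in -Trp DD, so the -Trp DD counts are near that background. Of 20 clock genes JTK_CYCLE called 11 on Ctrl and 6 on -Trp in LD, and 0 on Ctrl and 1 on -Trp, Ciart, in DD.

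Genes most like each member were ranked by Pearson's r over the 24 means of group and time, each centred within LD and within DD, among 13240 genes. The means share libraries and scaling, so r is a description. Fabp7 was most like Lgi4 (r = 0.888), a secreted protein of glia, S100a16 (0.887), Lap3 (0.857), Tmem51 (0.843) and Gm13293 (0.841). For Lgi4, r was 0.924 over the 12 LD means and 0.863 over the 12 DD means. Fabp5 was most like Tmem141 (0.900), Tmem97 (0.865), Churc1 (0.863), Sec11c (0.854) and Clybl (0.837), and Fabp3 most like Fdx1l (0.928), Napa (0.915), Stx8 (0.908), Med10 (0.897) and Trappc1 (0.894).

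Among the members, Fabp3 and Fabp5 were the closest pair. Over the libraries of a group they gave r = 0.793 (Ctrl, adjusted permutation p = 0.00056) and 0.882 (-Trp, 0.00032) in LD, and 0.412 (Ctrl, 0.24) and 0.816 (-Trp, 0.00056) in DD. In the same sequence the rho values were 0.765, 0.905, 0.616 and 0.744, with adjusted permutation p-values of 0.0030, 0.00032, 0.042 and 0.0034. Without the 2 farthest libraries, r was 0.754, 0.805, 0.329 and 0.702. Fabp5 and Fabp7 gave r = 0.651 in -Trp DD (adjusted permutation p = 0.023) and no adjusted p under 0.05 in the other groups, and Fabp3 and Fabp7 gave none in any group. With the time means removed, r of Fabp3 and Fabp5 was 0.679, 0.868, 0.360 and 0.826, for which no p was computed. Without the libraries that stand apart, it was 0.630 in Ctrl DD and 0.783 in -Trp DD.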

How the data were processed

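Per the labels and the methods of the study, RNA was extracted with TRIzol, libraries were made from polyadenylated RNA with a stranded kit, and paired-end reads were sequenced. The authors aligned reads to mm10 with TopHat and deposited FPKM per gene and library from Cufflinks. Trimmomatic is also named in the submitters' processing notes. FPKM holds no read counts, so depth per library is unknown and count models were not used. The members, the gene lists and the tests were chosen with earlier results of these data known.

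JTK_CYCLE was rewritten in Python 3.11.15 (scipy 1.17.1) for a period of 24 h on FPKM as deposited, with a p-value under 0.05 as the threshold, and tested on simulated data. Libraries were scaled by medians of ratios (factors 0.909 to 1.083), and log2(FPKM + 0.5) entered limma 3.58.1 (R 4.3.3) for every gene averaging 0.5 FPKM or more. The model of a level had time of day beside diet or light, and a difference on this scale understates the change of low genes. Benjamini-Hochberg adjustment ran over all genes of a fit, with a threshold of 0.05. Correlations used 100000 permutations, two-sided, of the 18 libraries of a group without regard to time.

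The genes named are the 3 members, up to 3 genes per list and comparison with the smallest p among those called, the 5 genes most like each member, and Nr1d1, Nr1d2, Arntl, Per2 and Dbp. The liver genes were named after their values were seen. The labels do not tie equal replicate numbers to a shared batch, and not every pair deviated together: over 18 pairs of Ctrl and -Trp libraries with the same number and time, the deviations from the group means correlated with a median r of -0.00046 in LD (4 of 18 above 0.1) and 0.172 in DD (12 of 18). For LD and DD libraries of a diet, 4 of 18 pairs on Ctrl and 10 of 18 on -Trp were above 0.1. Promoters are from RefSeq on GRCm38.p6, which held 2 of the 3 members. Figures were drawn with matplotlib 3.10.9. The diet effect on the list of fatty acid receptors and oxidation is not reported here.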

Additional observations from a re-analysis of the deposited data

How the results depend on the processing

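The order of the columns changed the most. Under the names, 9416 of 24883 rows passed JTK_CYCLE on the Ctrl diet in LD, against 1769 in the order used here. The Ctrl diet in DD had 6874 rows, against 1225. On -Trp, 617 rows passed in LD and 1661 in DD, against 1846 and 354. The counts of members below have to be read against these. For the limma comparisons, the share of all genes called under the names is not given here. With the columns as named, the number of the 3 members called became, for JTK_CYCLE, 3 on Ctrl and 0 on -Trp in LD and 3 in -Trp DD, 2 for the diet effect on level in LD, 2 in DD, 2 for the diet effect on rhythm in LD, 1 in DD, 0 for the light effect on level on Ctrl and 3 on -Trp, 2 for the light effect on rhythm on Ctrl, and 2 for diet by light. Differences of level that turned in sign under the names were Fabp3 for the diets in LD (-0.33), Fabp5 and Fabp7 for the diets in DD (0.47 and 0.40), Fabp7 for light on Ctrl (-0.064), and Fabp3, Fabp5 and Fabp7 for light on -Trp (-0.61, -0.68 and -0.57). The cause was not tested.

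In the order used here, the Benjamini-Hochberg adjustment left 1 member called in Ctrl LD, both over all rows and over those averaging 1 FPKM or more. The limma cosinor test called 2 in -Trp LD, with Fabp5 added (unadjusted p = 0.046). A single fit for all 72 libraries called 0 members for the diet effect on level in LD. The pseudocounts of 0.1 and 1, the filters, median-of-ratios scaling for JTK_CYCLE and time of day as a factor changed no call, and FPKM as deposited added Fabp7 for light on -Trp (0.47 on the log2 scale, adjusted limma p = 0.040), as did the single fit (adjusted limma p = 0.049). The replicate block changed no call: Fabp7 had an adjusted limma p of 0.0033 for the diets in LD with the block, and -0.35 on the log2 scale as without it.

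With 1 library left out, the number of members called was 2 to 3 in Ctrl LD, 1 to 2 in -Trp LD and 0 in both DD groups for JTK_CYCLE, and 2 to 3 for light on -Trp. It did not change in the other comparisons. The diet effect on Fabp7 in LD was -0.38 to -0.32 in 36 repeats, with an adjusted limma p of at most 0.0062. Values near 0 changed sign: the diet effect on Fabp5 in DD was -0.023 to 0.019, and diet by light for Fabp3 was -0.038 to 0.027. FPKM gives no depth, so the counting error of low values such as Fabp4 is not known.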
